A study of Mus musculus with 7 samples.

Results

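The kinesins are motor proteins that bind microtubules and use ATP to move along them, to slide them or to take their ends apart. A group of them builds the mitotic spindle, carries chromosomes and completes cytokinesis, and the genes of this group are switched on mainly in dividing cells. Another group carries vesicles, mitochondria and other cargo along microtubules in interphase, and a few members have structural or signaling roles in cilia and elsewhere. In B-cell precursors, which divide rapidly in bone marrow and fetal liver, both kinds are used.

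The members were all genes of the expression table whose symbol starts with Kif or Kifc followed by a digit, which selected 44 of 24341 rows. Of these, 41 are kinesin genes, and they were divided by textbook role into 15 mitotic, 15 transport and 11 other kinesins. Kifc5b, with little known of its own role, was placed in the mitotic class beside Kifc1, of which it is a close copy. The remaining 3 rows are Kif1bp, which encodes a protein that binds kinesins, the antisense RNA Kif16bos and the pseudogene Kif4-ps. RNA-seq was performed on B-cell precursor (BCP) cells sorted by flow cytometry from spleens of Eμ-Ret mice, bred on BALB/c and hemizygous for a Ret fusion oncogene that is driven by the immunoglobulin heavy chain enhancer. The preleukemic group held cells of 4 young healthy mice, and the leukemic group held cells of 3 older, moribund mice with overt disease. All 7 samples carried the transgene, none came from a mouse without it, and age differed between the groups together with disease, so the effects of age and disease cannot be told apart. The study used these cells to follow how leukemia with extra chromosomes arises from a preleukemic population, and the kinesin Kifc1 was the motor it examined further.

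Levels are given in FPKM, fragments scaled to transcript length and library size, with 0.01 as the lowest value listed. The low values stepped in whole fragments, which put the depth between 13250000 and 15850000 fragments per sample. At the lowest depth a transcript of 1500 bases has 199 fragments at 10 FPKM, a counting error of 7.09%, and 19.9 fragments at 1 FPKM, an error of 22.4%. B-cell precursor markers were present in all samples, with a summed level of 4325 to 6871 FPKM in leukemic and 8351 to 10477 FPKM in preleukemic samples; 4 of 16 were called lower and none higher, and none was at the floor throughout a group. Over all genes tested 6.26% were called lower and 8.47% higher. Markers of red cell precursors were called higher in leukemic samples for 16 of 16 genes tested, with sums of 5797 to 26661 against 424 to 2851 FPKM. Macrophage markers were called higher for 7 of 11 genes (166 to 370 against 39.5 to 90.5 FPKM), neutrophil markers for 4 of 11 (1422 to 1764 against 150 to 870 FPKM) and platelet markers for 4 of 4 (14.0 to 54.8 against 1.71 to 3.30 FPKM). Of 7 platelet genes listed 4 were tested, and these passed the filter of an FPKM sum of at least 10 only through the leukemic samples. So did Epor and Gata1 of the red cell list. For such genes the filter itself favored a call in the higher direction. Markers of T and NK cells were called for 0 of 8 (25.6 to 82.7 against 27.1 to 34.1 FPKM). The labels describe sorting for both groups, while for its cell cultures the study mostly took leukemic spleen cells without enrichment. In bulk RNA, fewer cells of a type and less RNA per cell cannot be told apart.

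The first comparison asked which kinesin genes differed between leukemic and preleukemic BCP cells. A member was tested where its FPKM values summed to at least 10 over the 7 samples, and called where the limma p, adjusted over all 10541 genes tested, was under 0.05. The filter kept 27 of 41 kinesin genes, and 4 of these were called, Kifc1 and Kifc5b higher and Kif19a and Kif26a lower. The 4 of 27 called stand beside 14.7% of all genes tested, so kinesins as a family were called about as often as the rest. In each direction 2 of 27 were called, beside 8.47% of all genes called higher (893) and 6.26% called lower (660). This split depended on scaling: with FPKM rescaled to TPM, 686 genes were called higher and 2231 lower, and of the kinesins 1 was higher and 4 were lower. After quantile normalization the counts over all genes were 754 and 907, with the kinesin count again 4. The classes lay apart in sign. Of the mitotic kinesins 14 of 14 tested had a log2 fold change above 0, against 47.9% of all genes, with a median of 0.51 (range 0.20 to 0.86). Of the transport kinesins 2 of 9 lay above 0, with a median of −0.16 (range −1.09 to 0.52), and of the other kinesins 1 of 4, with a median of −1.17. The median over all genes was −0.02. The difference between the medians of the mitotic and the transport class was 0.67 on the log2 scale, against an SD between replicates of 0.42 for that difference.

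**Figure D1:**
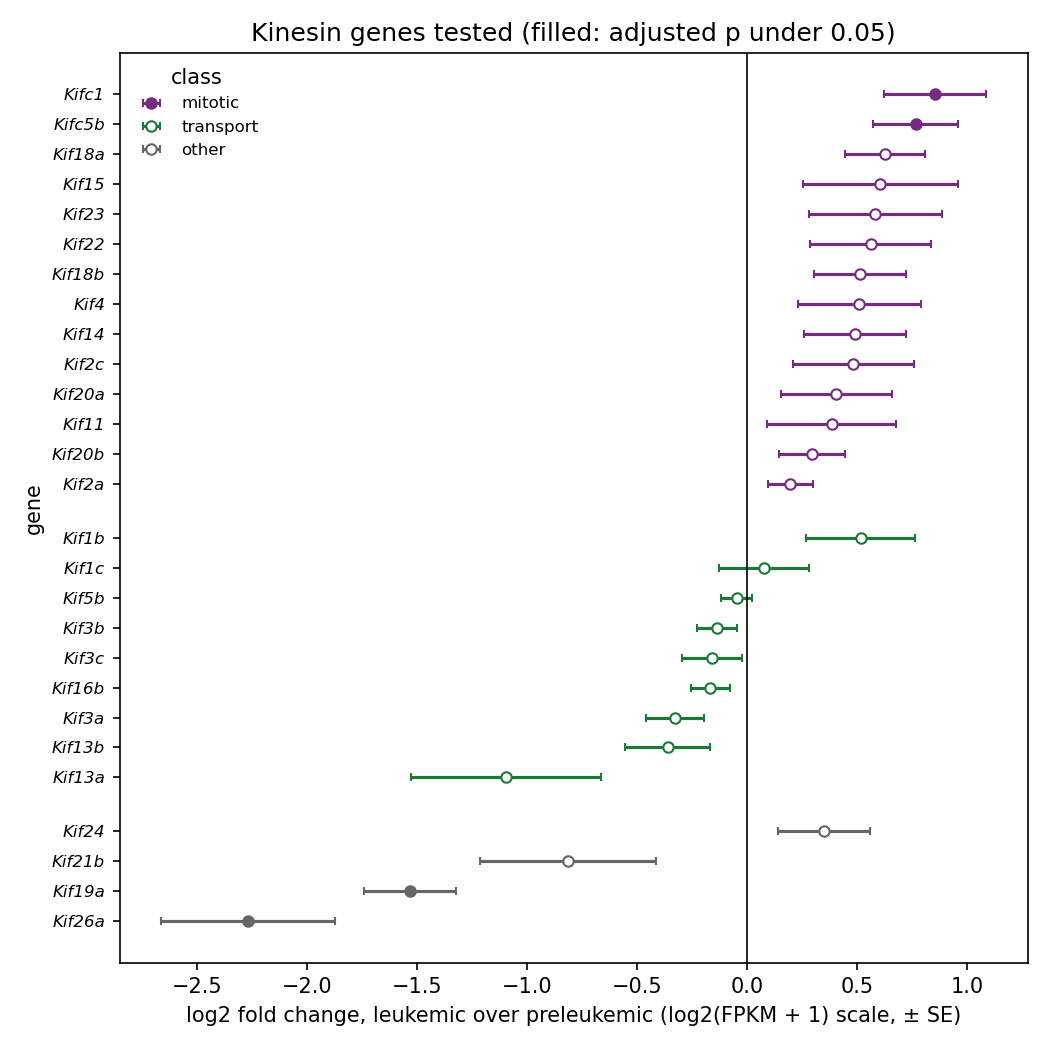
Log2 fold change of leukemic over preleukemic samples on the log2(FPKM + 1) scale (x axis, ± SE) for the 27 kinesin genes tested (y axis), in 3 classes shown by color, with filled points for an adjusted p under 0.05. All 14 mitotic kinesins lie to the right of 0, 7 of 9 transport kinesins lie to the left, and 4 points are filled.

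The mitotic kinesins with the highest mean levels were Kif11, Kif22, Kif23, Kif2a and Kif20a. Kif11, the plus-end motor that pushes spindle poles apart (chr19:37376403-37421859), was measured at 97.9, 59.0 and 41.5 FPKM in leukemic replicates 1 to 3 and at 56.6, 34.8, 54.1 and 47.3 FPKM in preleukemic replicates 1 to 4. Leukemic replicates 1 and 2 were above all preleukemic samples and leukemic replicate 3 was inside their range, and the log2 fold change was 0.38 ± 0.29 (SE; adjusted p = 0.379). Kif22, a chromokinesin that binds chromosome arms (chr7:127027731-127042420), was at 83.8, 56.7 and 40.1 FPKM against 46.6, 27.0, 44.9 and 39.4 FPKM, a log2 fold change of 0.56 ± 0.28 (adjusted p = 0.192). Again leukemic replicate 3 overlapped the preleukemic samples. Kif23, the motor of centralspindlin at the midbody (chr9:61917278-61946799), was at 68.9, 46.5 and 27.5 FPKM against 33.6, 21.9, 35.5 and 28.6 FPKM, a log2 fold change of 0.58 ± 0.30 (adjusted p = 0.214). Here leukemic replicate 3 was below 3 of the 4 preleukemic samples. Kif20a, which acts in cytokinesis (chr 18), was at 48.5, 35.9 and 25.3 FPKM against 33.5, 18.9, 29.3 and 26.2 FPKM, with a log2 fold change of 0.41 (adjusted p = 0.287). Kif2a takes apart microtubule ends at spindle poles and also acts in neurons (chr 13), and it had the smallest log2 fold change of the class, 0.20 (adjusted p = 0.220). Its levels were 42.6, 33.3 and 36.9 FPKM against 35.5, 33.0, 30.5 and 31.2 FPKM, a narrow range in both groups. Opposite-strand genes share exon positions with Kif20a (Cdc23, 31.8% of its exon bases), Kif4 (Pdzd11, 15.1%) and Kif2a (Dimt1, 13.2%), and outside the class with Kif3c (1110002L01Rik, 37.8%, and Gm48512, 8.49%), Kif1bp (4933428P19Rik, 12.7%) and Kif5b (AC113003.1, 3.02%, and Gm17036, 1.41%). The libraries kept strand, but whether counting used it is not given in the sources used here.

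The other mitotic kinesins lay lower, down to a mean of 6.03 FPKM for Kif14, a cytokinesis motor. Kif18a, which dampens chromosome movement at the metaphase plate (chr 2), was just outside the call with a log2 fold change of 0.63 ± 0.18 (adjusted p = 0.0585). Its leukemic values of 18.4, 16.4 and 11.9 FPKM met the preleukemic values of 12.0, 7.64, 9.75 and 9.30 FPKM only at leukemic replicate 3, which was just below preleukemic replicate 1. Kif15, which can stand in for Kif11 in spindle assembly (chr9:122951081-123018733), had a log2 fold change of 0.61 ± 0.35 (adjusted p = 0.259) with a wide leukemic spread, 60.0, 33.0 and 21.3 FPKM. Its preleukemic values were 27.5, 15.3, 28.1 and 21.9 FPKM. Kif18b, Kif4, Kif14, Kif2c and Kif20b had log2 fold changes from 0.29 to 0.51 and adjusted p from 0.131 to 0.252. Kif2b, a relative of Kif2a, was listed at 0.01 FPKM in all 7 samples.

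The 14 genes ranked the samples in nearly one order, so their 14 signs above 0 are not separate observations. Leukemic replicate 1 was highest for 14 of 14 genes and leukemic replicate 2 second for 13, while leukemic replicate 3 was inside the preleukemic range for 11. Preleukemic replicate 2 was lowest for 13. Summed over the class, the level was 598, 411 and 302 FPKM in leukemic and 352, 223, 329 and 289 FPKM in preleukemic samples (437 ± 149, SD, n = 3, against 298 ± 56.8, SD, n = 4). A list of 22 proliferation and S-phase genes gave sums of 3170, 2293 and 1874 FPKM against 2093, 1237, 1871 and 1632 FPKM, with the same highest, second and lowest samples. The red cell precursor sum had another order, with leukemic replicate 2 highest at 26661 FPKM and leukemic replicate 1 at 5797 FPKM. The part of these in the kinesin levels was not tested. Without leukemic replicate 1 the class median log2 fold change was 0.27, without preleukemic replicate 2 it was 0.38, and without leukemic replicate 3 it was 0.73.

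**Figure D2:**
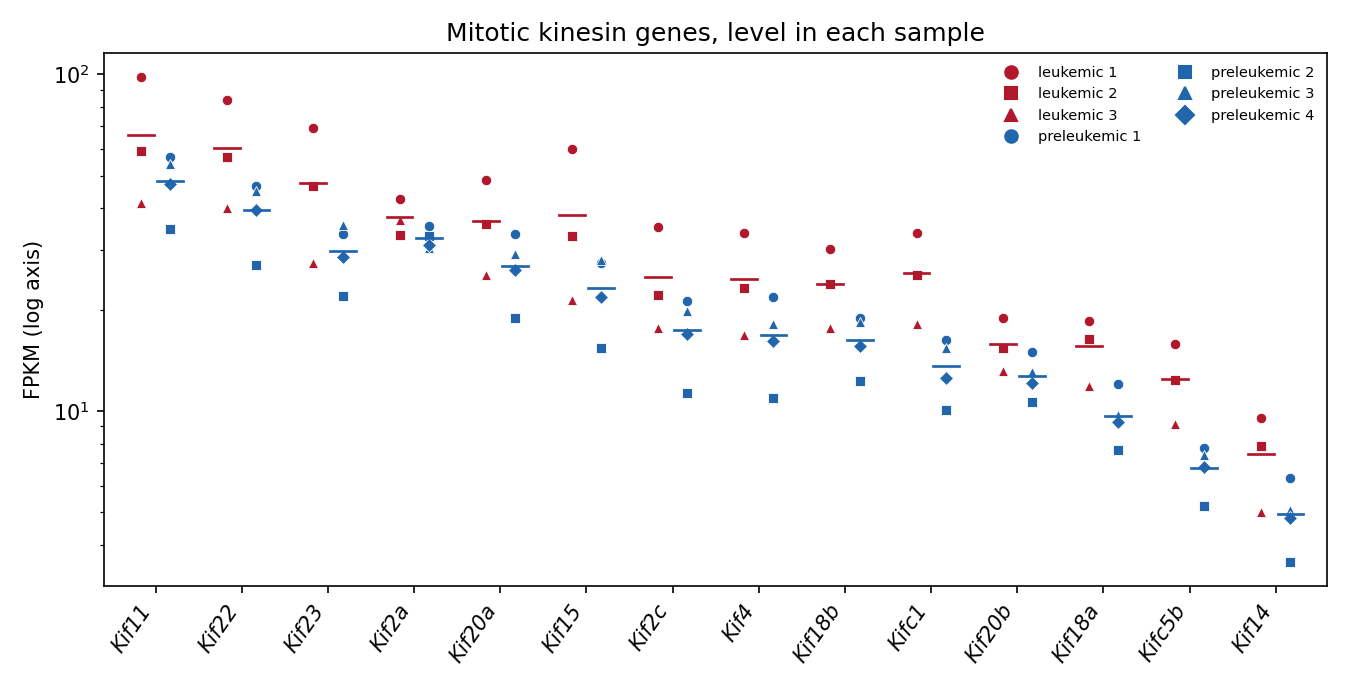
FPKM on a log axis of the 14 mitotic kinesin genes tested, 1 point per sample with a bar at the mean of each group (red, 3 leukemic; blue, 4 preleukemic). Leukemic replicate 1 (red circles) is highest for all 14 genes, and leukemic replicate 3 (red triangles) lies among the preleukemic points for 11 of them.

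Kifc1 and Kifc5b were the mitotic kinesins called higher. Kifc1, the minus-end motor that bundles microtubules at spindle poles and clusters extra centrosomes (chr17:33875666-33890633), was measured at 33.8, 25.3 and 18.1 FPKM in leukemic and 16.3, 10.1, 15.4 and 12.6 FPKM in preleukemic samples. All leukemic samples were above all preleukemic samples, with means of 25.8 ± 7.86 (SD, n = 3) and 13.6 ± 2.83 FPKM (SD, n = 4). The log2 fold change was 0.86 ± 0.23 (SE; adjusted p = 0.0489). Kifc5b, a close copy of Kifc1 with little known of its own role (chr17:26917091-26932579), was at 15.8, 12.4 and 9.17 FPKM against 7.74, 5.23, 7.41 and 6.80 FPKM. The groups did not overlap either, and the log2 fold change was 0.77 ± 0.19 (adjusted p = 0.0401). Both calls sat close to the threshold. Kifc1 passed it under 4 of 15 alternative settings, with an adjusted p of up to 0.159, and Kifc5b under 6 of 14. Groups that did not overlap were found for 7 of 27 kinesins tested, beside 32% of all genes. Leukemic values entirely above the preleukemic ones were found for these 2 of 14 mitotic kinesins, beside 14.9% of all genes.

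Kifc1 and Kifc5b were the only pair among the 44 rows that shared a stretch of 75 bases in annotated transcripts, and 25.4% of such stretches in Kifc1 and 24.5% in Kifc5b were shared. Reads from these stretches could have been assigned to either copy, so the split between the copies is uncertain. The ratio of Kifc1 to Kifc5b lay between 1.85 and 2.15 in all 7 samples, and leukemic and preleukemic ratios overlapped. Both genes are on chr 17, where the median log2 fold change of 592 genes tested was 0.35, the highest of 20 chromosomes, with 199 genes called higher and 3 lower. The median deviation of chr 17 genes from their preleukemic mean was 0.35, 0.33 and 0.38 in leukemic replicates 1 to 3, against −0.06 to 0.10 in preleukemic samples. Kif23 and Kif15 are on chr 9, which was next with a median of 0.22 over 596 genes (0.32, 0.25 and 0.07 in leukemic replicates 1 to 3). The other 18 chromosomes had median log2 fold changes from −0.08 to 0.02, but single samples deviated more. In leukemic replicates 1 to 3, chr 15 was at −0.05, −0.05 and 0.19 and chr 14 at −0.07, −0.11 and 0.13. In preleukemic replicate 3, chr 14 was at 0.13. The labels give no karyotype for these samples, and the part of chromosome number in the kinesin levels was not tested.

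A comparison within samples set each mitotic kinesin against the geometric mean of the others, leaving Kifc1 and Kifc5b out of that mean. It was chosen after the values were seen and is given as a description. Kifc1 was at 0.896, 0.939 and 0.915 times the mean of the others in leukemic samples and at 0.693, 0.695, 0.720 and 0.661 times in preleukemic samples. Kifc5b was at 0.417, 0.458 and 0.462 times against 0.329, 0.360, 0.346 and 0.358 times. In this measure the leukemic samples, which were spread widely in FPKM, lay close together for both genes. The groups did not overlap for these 2 of 14 genes, and for the other 12 they did. The same 2 were already the only mitotic kinesins tested whose groups did not overlap in FPKM. As copies that share sequence they are not 2 separate observations. The measure was computed for mitotic kinesins only, so no share over all genes stands beside this count. The differences of Kifc1 and Kifc5b were 0.41 and 0.36 on the log2 scale, and those of the 12 others ran from −0.32 for Kif2a to 0.20 for Kif18a. Both Kifc1 and Kifc5b lie on chr 17, where the median log2 fold change of the genes tested was 0.35. The part of this chromosome-wide difference in the 2 values was not tested.

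**Figure D3:**
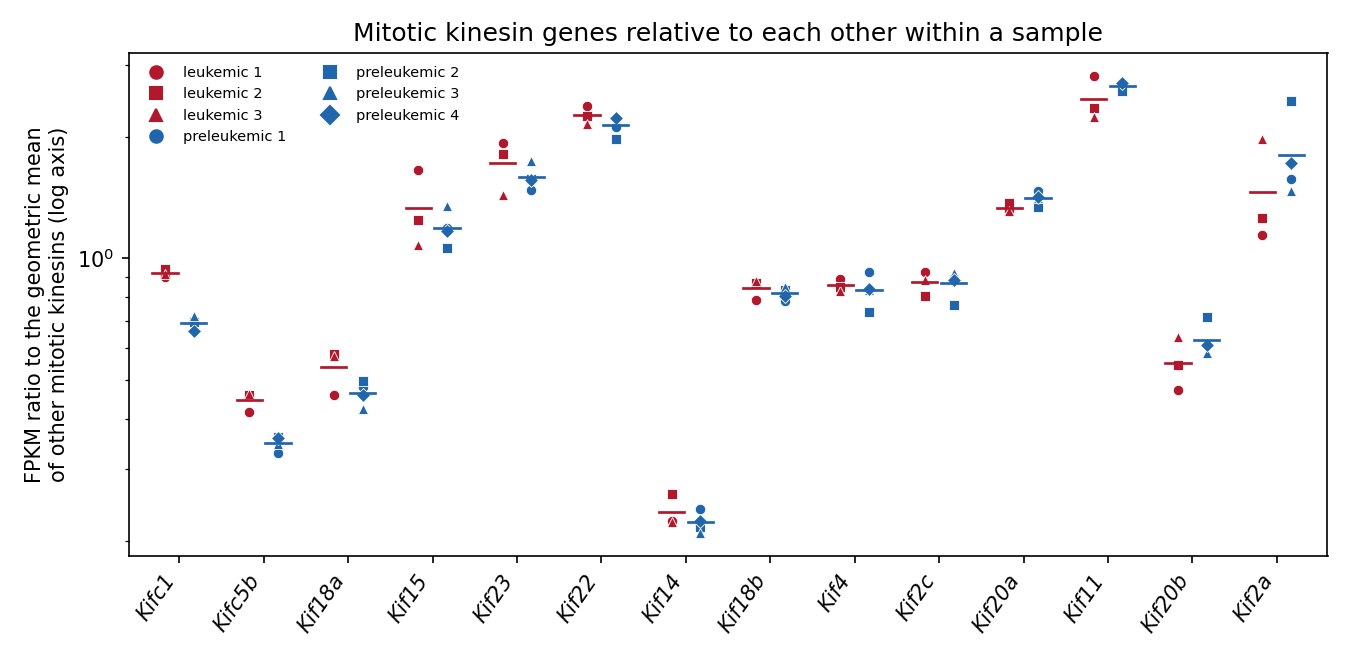
FPKM of each mitotic kinesin gene divided by the geometric mean of the other mitotic kinesins in the same sample (Kifc1 and Kifc5b not in the mean), on a log axis, with 1 point per sample and a bar at each group's mean (red, 3 leukemic; blue, 4 preleukemic). Kifc1 and Kifc5b, at the left, are the 2 of 14 genes whose red and blue points do not overlap.

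Promoters of the members were examined for letters that many mitotic promoters share. The cell cycle homology region (CHR), TTTGAA, is bound by the complexes that hold mitotic genes silent in resting cells and activate them before mitosis, and CCAAT boxes often stand upstream of it. Both were searched on both strands in RefSeq promoters of GRCm38.p6, which reach from 250 bases before to 50 bases after the start of a gene. A CHR was found in 11 of 13 tested mitotic kinesins with a promoter entry (84.6%), in 0 of 7 transport kinesins and in 0 of 2 other kinesins, against 17.9% of all 32851 promoters. A CCAAT box was found in 8 of 13 mitotic and 3 of 7 transport kinesins (37.4% of all promoters). Both motifs were found in 8 of 13 mitotic and 0 of 7 transport kinesins (6.95% of all promoters). This count ignores order and distance. In Kif14 the CHR begins 228 bases before the start, upstream of its CCAAT box at 92 bases, and in Kif4 the CHR begins at base 20 after it. Kif18a and Kif2a were the tested mitotic kinesins with neither motif, and Kif15, Kif20b and Kif2c held a CHR with no CCAAT box. Among all 33 kinesins with an entry, tested or not, 14 held a CHR, including Kif1a of the transport class and Kif26b and Kif27 of the other class. A match is a description of letters, not of binding.

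The windows from 100 bases before to 10 bases after the start are printed for the 2 genes called higher. They are also printed for mitotic kinesins where both motifs lie near the start, with a called-lower gene and a transport gene beside them. The transport gene shown holds neither motif, while Kif1b, Kif3a and Kif3b of that class hold a CCAAT box within such a window. Capitals mark a CHR or a CCAAT box on either strand.
Kifc1, chr17:33890624-33890733, minus strand, called higher: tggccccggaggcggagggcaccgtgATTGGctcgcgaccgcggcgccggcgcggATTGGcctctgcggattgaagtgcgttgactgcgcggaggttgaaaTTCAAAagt
Kifc5b, chr17:26916991-26917100, plus strand, called higher: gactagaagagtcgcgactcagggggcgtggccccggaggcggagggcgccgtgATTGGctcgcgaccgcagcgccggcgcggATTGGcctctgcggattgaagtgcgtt
Kif11, chr19:37376282-37376391, plus strand, the highest mean level: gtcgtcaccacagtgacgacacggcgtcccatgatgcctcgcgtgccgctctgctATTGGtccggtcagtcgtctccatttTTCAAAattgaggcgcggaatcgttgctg
Kif18b, chr11:102925115-102925224, minus strand, the depolymerase of microtubule plus ends: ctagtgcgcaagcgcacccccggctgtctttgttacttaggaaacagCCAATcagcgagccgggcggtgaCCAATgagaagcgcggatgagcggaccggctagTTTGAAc
Kif22, chr7:127042411-127042520, minus strand, chromokinesin: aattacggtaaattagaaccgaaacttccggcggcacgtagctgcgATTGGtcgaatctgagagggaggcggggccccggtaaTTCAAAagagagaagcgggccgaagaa
Kif23, chr9:61946790-61946899, minus strand, cytokinesis, chr 9: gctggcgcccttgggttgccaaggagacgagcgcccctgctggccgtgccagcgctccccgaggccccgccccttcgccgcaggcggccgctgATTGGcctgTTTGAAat
Kif26a, chr12:112146108-112146217, plus strand, called lower, neither motif in the window: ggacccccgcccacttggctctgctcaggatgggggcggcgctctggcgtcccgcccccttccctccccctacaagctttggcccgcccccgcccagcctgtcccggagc
Kif16b, chr2:142901455-142901564, minus strand, transport class, neither motif in the window: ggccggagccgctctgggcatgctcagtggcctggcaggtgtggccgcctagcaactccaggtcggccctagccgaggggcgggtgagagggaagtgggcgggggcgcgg
In Kif11 and Kif22 the CHR begins 19 and 17 bases before the start, with a CCAAT box 45 and 54 bases before it. Kif23, Kif18b and Kifc1 carry a CHR that begins at base 3, 4 and 2, counting the start as 1. The promoters of Kifc1 and Kifc5b share an identical stretch of 68 bases, and the CHR of Kifc5b begins at base 30, outside the printed window.

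No transport kinesin was called. Kif5b, the conventional kinesin heavy chain of most tissues (chr 18), was the most abundant at 47.4, 44.8 and 42.8 FPKM in leukemic and 44.7, 45.8, 48.0 and 47.6 FPKM in preleukemic samples. The fitted difference was −0.05 ± 0.07 on the log2 scale (SE; adjusted p = 0.666), and the groups overlapped over their narrow range. Kif1c, which moves vesicles and integrins (chr 11), was at 19.6, 10.1 and 11.1 FPKM against 12.2, 11.9, 13.1 and 12.1 FPKM, with leukemic replicate 1 highest and the other two below the preleukemic range. Its log2 fold change of 0.08 (adjusted p = 0.812) turned to −0.20 without that sample and to −0.08 under scaling to TPM. Kif16b, an early endosome motor (chr 2), was at 7.35, 7.67 and 8.08 FPKM against 9.16, 7.91, 8.80 and 9.21 FPKM (log2 fold change −0.17, adjusted p = 0.232).

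Among the tested transport kinesins 1 had leukemic values entirely above and 2 entirely below the preleukemic values, beside 14.9% and 17.1% of all genes. Kif13a, which carries recycling endosomes (chr13:46749088-46929718), was at 0.658, 5.74 and 3.84 FPKM in leukemic and 7.44, 6.60, 6.92 and 7.34 FPKM in preleukemic samples. Preleukemic samples were close to each other and leukemic replicate 1 was far below all others, with a log2 fold change of −1.09 ± 0.43 (adjusted p = 0.123). Kif3b, a subunit of the kinesin-2 motor that builds cilia (chr 2), was at 8.35, 7.06 and 8.26 FPKM against 8.87, 8.47, 8.57 and 9.05 FPKM, a log2 fold change of −0.13 (adjusted p = 0.323). The kinesin-2 subunits Kif3a and Kif3c had log2 fold changes of −0.33 and −0.16 (adjusted p = 0.131 and 0.438) with overlapping groups. Kif1b, a carrier of mitochondria and synaptic vesicle precursors (chr 4), went the other way at 3.92, 1.82 and 1.76 FPKM against 1.50, 1.55, 1.23 and 1.17 FPKM (log2 fold change 0.52, adjusted p = 0.185). Kif13b, which moves signaling cargo (chr 14), had overlapping groups and a log2 fold change of −0.36 (adjusted p = 0.222). The summed level of the 15 transport kinesins was 97.8, 90.0 and 91.0 FPKM in leukemic and 98.2, 98.4, 103 and 101 FPKM in preleukemic samples, so its replicates varied far less than those of the mitotic sum. Under TPM scaling, which lowers the median of all genes to −0.18, Kif16b and Kif3a were called lower, and without leukemic replicate 2 Kif13a was.

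**Figure D4:**
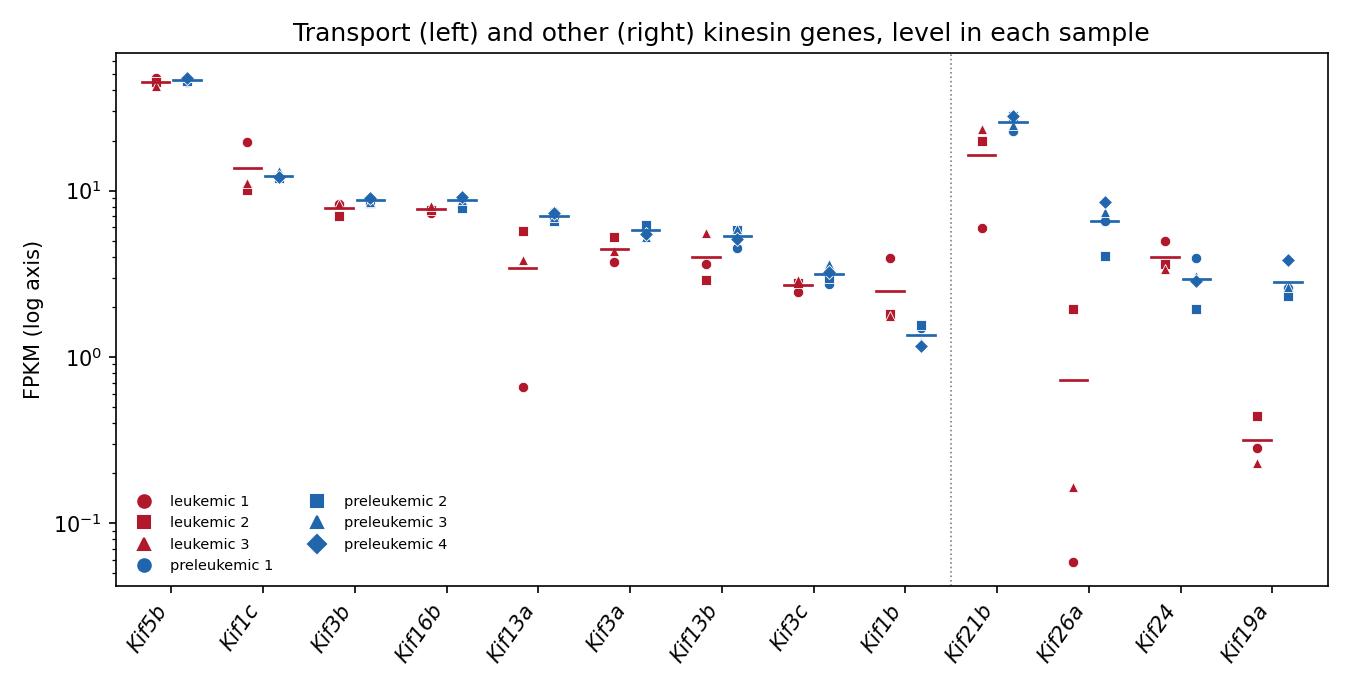
FPKM on a log axis of the 9 transport (left of the dotted line) and 4 other (right) kinesin genes tested, 1 point per sample with a bar at the mean of each group (red, 3 leukemic; blue, 4 preleukemic). The leukemic replicate 1 point of Kif13a (red circle) lies far below the others, and the red points of Kif26a and Kif19a all lie below the blue ones.

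Kif26a and Kif19a of the other class had the largest differences among kinesins tested. Their FPKM sums of 28.6 and 12.3 passed the filter only through the preleukemic samples, where both were high. In the limma fit without a filter both were still called (adjusted p = 0.0273 and 0.00845). Kif26a encodes a kinesin that lacks motor activity and restrains GDNF and Ret signaling in enteric neurons (chr12:112146208-112181747). Its levels were 0.0585, 1.95 and 0.166 FPKM in leukemic and 6.52, 4.02, 7.38 and 8.50 FPKM in preleukemic samples. The groups did not overlap, and leukemic replicate 2 was closest to the preleukemic samples. Kif26a fell by 2.27 on the log2(FPKM + 1) scale (SE 0.40, adjusted p = 0.0168), a scale that understates changes of low genes. Kif19a, which shortens microtubules at the tips of cilia (chr11:114765389-114790575), was at 0.283, 0.439 and 0.230 FPKM against 2.60, 2.31, 2.63 and 3.81 FPKM. All leukemic values were far below the preleukemic ones, with means of 0.317 ± 0.109 (SD, n = 3) and 2.84 ± 0.663 FPKM (SD, n = 4), and Kif19a fell by 1.53 (SE 0.21, adjusted p = 0.0108). The Kif19a call held when any single sample was left out. The Kif26a call held in 5 of 7 such fits and was lost without preleukemic replicate 3 or 4.

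The order of samples for Kif26a, leukemic replicate 1 lowest, then 3, then 2, then the preleukemic samples, was also that of the B-cell precursor marker sum (4325, 5738 and 6871 FPKM, against 8351 FPKM or more). Enpep encodes BP-1, which with B220 and CD43 defines the phenotype by which the study describes sorting preleukemic cells. It was at 19.1, 102 and 77.2 FPKM in leukemic and 134, 210, 180 and 191 FPKM in preleukemic samples (log2 fold change −1.70, adjusted p = 0.0688). This was the largest fall of the 16 markers, of which 15 lay below 0 and 1 above. Spn (CD43) and Ptprc (B220) had log2 fold changes of −0.35 and −0.26 with overlapping groups (adjusted p = 0.275 and 0.354). The part of these marker differences in the kinesin levels was not tested. Kif21b, a neuronal and lymphocyte kinesin that limits microtubule growth (chr1:136131401-136178014), followed with 5.99, 19.8 and 23.3 FPKM against 22.8, 27.9, 24.9 and 27.9 FPKM. Leukemic replicate 1 was far below the other samples, as for Kif13a, and the log2 fold change was −0.81 ± 0.40 (adjusted p = 0.193). Kif24, which acts at centrioles (chr 4), was at 5.01, 3.63 and 3.36 FPKM against 3.91, 1.94, 3.08 and 2.86 FPKM (log2 fold change 0.35, adjusted p = 0.271).

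The 14 kinesins below the filter reached at most 2.51 FPKM. The genes nearest to it were Kif19a and Kif1b inside, with sums of 12.3 and 12.9 FPKM, and Kif7 and Kif9 outside, with sums of 7.47 and 3.62 FPKM. Kif2b and Kif12 were at the floor in all samples, and the neuronal motors Kif1a, Kif5a and Kif5c stayed at or below 0.597 FPKM. Kif7, Kifc3 and Kif27 had leukemic values entirely above the preleukemic ones and are named after their values were seen. The share of such genes among all genes below the filter was not computed, so whether 3 of 14 is unusual is not known. Kif7, a regulator of Hedgehog signaling in cilia, was at 2.51, 0.925 and 1.73 FPKM against 0.690, 0.492, 0.733 and 0.390 FPKM (adjusted p = 0.0676 in the fit without a filter). Kifc3, a minus-end motor of epithelial junctions, was at 0.144 to 0.504 FPKM against 0.0529 to 0.128 FPKM, and Kif27 at 0.153 to 0.392 against 0.01 to 0.0478 FPKM. At such levels a value rests on few fragments. Of the rows that are not kinesins, Kif1bp was at 13.0, 11.6 and 13.2 FPKM against 15.9, 14.5, 15.3 and 14.9 FPKM (log2 fold change −0.25 ± 0.08, adjusted p = 0.0779), Kif16bos reached at most 0.233 FPKM and Kif4-ps was at the floor throughout.

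Genes that work with kinesins were described from lists chosen by role, whose counts stand beside 8.47% of all genes called higher and 6.26% called lower. Of 21 spindle and midbody partners 19 had a log2 fold change above 0, with a median of 0.45, and 0 were called by limma. Birc5, a chromosomal passenger that acts with Kif20a, was at 176, 144 and 92.2 FPKM against 92.0, 49.1, 77.8 and 67.3 FPKM (log2 fold change 0.92, adjusted p = 0.0608), and Racgap1, which forms centralspindlin with Kif23, had a log2 fold change of 0.25 (adjusted p = 0.286). All 22 proliferation and S-phase genes lay above 0, with a median of 0.48 and 2 called higher. Mki67, a coat protein of mitotic chromosomes, was at 162, 165 and 132 FPKM against 103, 68.1, 108 and 89.1 FPKM, with groups that did not overlap (log2 fold change 0.74, adjusted p = 0.0316). E2f1, a transcription factor of S-phase entry, had a log2 fold change of 0.71 (adjusted p = 0.0411), while Pcna and Top2a, the most abundant of the list, had 0.32 and 0.28 (adjusted p = 0.271 and 0.463). The mitotic kinesin median of 0.51 was near those of both lists.

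Among the tubulins, the building blocks of the track, 11 of 13 lay above 0 with a median of 0.38, and 2 were called. Tuba1c and Tubb2a rose, by a log2 fold change of 0.84 and 1.18 (adjusted p = 0.0346 and 0.0421). Tubb5 and Tubb4b, the most abundant, had 0.62 and 0.54 (adjusted p = 0.0555 and 0.0847). Of 14 kinesin light chains and cargo adaptors 2 were called higher, beside the 8.47% of all genes, and the median was −0.11. Trak2, which links mitochondria to Kif5 motors, rose from 24.1, 18.4, 15.6 and 17.4 FPKM in preleukemic to 32.4, 66.6 and 48.3 FPKM in leukemic samples (log2 fold change 1.29, adjusted p = 0.0191). Among leukemic samples its order was that of the red cell precursor sum, 5797, 26661 and 13027 FPKM, whose part in it was not tested. Rhot2, the mitochondrial receptor that binds Trak proteins and lies on chr 17, rose by 0.40 (adjusted p = 0.0449), and the abundant Klc1 and Arl8b had log2 fold changes of 0.01 and 0.14 (adjusted p = 0.948 and 0.481). In the dynein, dynactin and LIS1 complex, the minus-end counterpart of the kinesins, 1 of 20 was called, Ndel1, which fell by 0.41 (adjusted p = 0.0470), beside 6.26% of all genes called lower. Dynlrb1 and Dctn2, its most abundant genes, had log2 fold changes of −0.16 and 0.08 (adjusted p = 0.239 and 0.514), and the median was −0.11.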

How the data were processed

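RNA was extracted by the authors from splenic BCP cells, sorted according to the labels, of 3 leukemic and 4 preleukemic Eμ-Ret mice, and stranded mRNA libraries were sequenced. The submitters' processing notes name STAR 2.5.0b, Cufflinks 2.2.1, bedtools 2.17.0, Bowtie and DESeq2 with build mm10; the annotation and the strand setting are not given in the sources used here. The authors deposited 1 FPKM value per gene and sample, with a floor of 0.01. FPKM divides by length and library, so a class that takes a large share of fragments lowers the rest, and a count model was not used. Starts in the table count from 0 and were raised by 1.

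Samples were grouped by their labels. limma 3.58.1 (R 4.3.3; lmFit, then eBayes with an intensity trend) compared the groups on a log2(FPKM + 1) scale with no covariate. It was run for 10541 genes whose FPKM summed to 10 or more, Benjamini-Hochberg adjustment covered all of them, and the threshold was 0.05. The code was tested on simulated data. The design text names 4 young and 3 older mice, but no label ties a sample to a mouse, so p-values measure only the spread between these samples, which may be technical. Members, classes and lists were chosen by role with earlier results of these data known. Values are printed for Kifc1, for members called or with groups that do not overlap, and for the 5 highest members of each class. In other lists they are printed for up to 3 called and the 2 highest genes. Kif15, Kif18a, 3 kinesins below the filter and the markers Enpep, Spn and Ptprc were added after their values were seen. Medians over classes are descriptions with no test. Alternatives changed the pseudocount, filter, scaling, trend, block or class members, or left out 1 sample. Depth came from the steps between low values in 2243 single-transcript genes. A fragment length of 200 bases was chosen together with the depths, as the length that made most of these values whole fragments. At that choice 79.4% to 85.7% of them were whole fragments within 0.1, a share that the choice itself maximized. Counting errors cover counting alone. RefSeq promoters were matched by symbol for 33 of 41 kinesins. Sequence sharing and exon overlap were taken from GENCODE M21, and further work was done in Python 3.11.15.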

Additional observations from a re-analysis of the deposited data

How the results depend on the processing

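The 14 mitotic kinesins kept log2 fold changes above 0 under all alternatives (12 of 12 tested with an FPKM sum of at least 70), and the difference of the class medians lay between 0.44 and 0.93. Kifc1 lost its call with log2 fold changes of 0.72 under TPM scaling (adjusted p = 0.0549), 0.86 without a filter (0.0724), 0.86 without an intensity trend (0.0556) and 0.90 with a pseudocount of 0.01 (0.0502), and when samples were left out it ranged from 0.64 to 1.08, passing only without leukemic replicate 3 (adjusted p = 0.0353). Without leukemic replicates 1 and 2 in turn its adjusted p was 0.0945 and 0.0876, and without preleukemic replicates 1 to 4 it was 0.0670, 0.106, 0.0936 and 0.132. Of the kinesins 4 were called, against 1 with an FPKM sum of at least 70. That filter left Kif19a, Kif26a and Kifc5b untested, and Kifc1 kept its call (limma adjusted p = 0.0486). Without a filter 2 were called, and 1 to 5 when a sample was left out (2 without leukemic replicate 1 or preleukemic replicate 1 or 2, and 1 without preleukemic replicate 3 or 4). Over all genes 1553 were called, against 951 with the stricter filter, 2917 under TPM scaling and 149 to 1620 when a sample was left out, with 932, 443, 271 and 149 without preleukemic replicates 1 to 4. The split was 893 higher and 660 lower, against 754 and 907 after quantile normalization and 686 and 2231 under TPM scaling. The transport median of −0.16 was −0.32 under TPM scaling, −0.038 over 15 genes without a filter and 0.015 over the 2 genes left by the stricter filter. Kif1c, at 0.08, reversed to −0.081 under TPM scaling and ranged from −0.20 (without leukemic replicate 1) to 0.25 (without leukemic replicate 2) when a sample was left out. The causes were not tested.

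The labels number the replicates, but same-numbered samples did not deviate together (correlations of 0.03, 0.05 and −0.09 across genes), so the numbers pair nothing. A fit with the replicate block, which also drops preleukemic replicate 4, gave 0 calls by limma, with 2416 genes and 5 kinesins at an unadjusted p under 0.05. The same 6 samples without the block gave 149 calls and 2648 genes and 5 kinesins at that p. The block gave a Kifc1 log2 fold change of 0.83 (adjusted p = 0.159). Group sizes of 3 and 4 and levels under 1 FPKM limit the precision. No value among the preleukemic samples stood apart by Dixon's test, which was run on 28 genes.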
